A study of Homo sapiens with 16 samples.

Results

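Long noncoding genes that host small nucleolar RNAs (snoRNAs) were examined in RNA sequencing of 2 human melanoma cell lines. The set held every gene of both count tables whose symbol is SNHG followed by digits only (SNHG stands for snoRNA host gene), together with GAS5, ZFAS1, DANCR and EPB41L4A-AS1. This gave 32 genes of the 60676 gene identifiers in the tables. A filter on low counts left 30 of the 32 genes for testing, among 21569 genes tested in all. SNHG27 had 13 counts over all libraries and SNHG28 had none, so neither was tested.

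A snoRNA host gene carries snoRNAs in its introns. After splicing, the introns release the snoRNAs, which guide chemical changes of ribosomal RNA: box C/D snoRNAs guide methylation of the ribose, and box H/ACA snoRNAs guide the conversion of uridine to pseudouridine. Small Cajal body RNAs (scaRNAs) are relatives that act on spliceosomal RNAs. The spliced exons of many such hosts reach the cytoplasm, carry only short reading frames, and are degraded by nonsense-mediated decay (NMD), which needs translation. Their level therefore depends on transcription and on whether ribosomes read them. Several hosts begin with a C followed by a run of pyrimidines, the start shared with ribosomal protein genes (5′ terminal oligopyrimidine, or TOP).

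The lines were A101D, labelled as methionine dependent, and MeWo, labelled as methionine independent. Methionine-dependent cells are those that do not proliferate when homocysteine, the precursor of methionine, takes its place in the medium. There were 8 libraries per line, made from total RNA with a stranded kit. The growth protocol is the same text for all libraries: a base with cystine, glutamine, pyruvate and dialyzed serum received either methionine (control, 200 µM) or, in its place, homocysteine (200 µM). No label says which library came from which of these media. Values are given for 4 groups of 4 libraries, replicates 1-4 and replicates 5-8 of each line. These replicate sets belong to the definition of the groups, which was proposed with earlier results of these data known. No label or column header gives the sets a meaning, so medium, culture, day or any other difference between them cannot be told apart. Nothing says whether the libraries of a line came from separate cultures, and p-values measure only the spread between these libraries.

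Total counts ran from 28910881 to 38961862 per library, with overlapping ranges in the 4 groups. All 8 melanocyte markers had counts in every group. The summed level of these markers was 2931 to 3511 CPM (counts scaled to a common library size) in A101D replicates 1-4, 2458 to 2690 in A101D replicates 5-8 and 10011 to 11660 in MeWo. Single markers did not all follow the sum. DCT had means of 1691.5 and 1311.2 CPM in the A101D sets and 490 and 518 CPM in MeWo, and S100B was also lower in MeWo. Most of the MeWo sum was PMEL (means 6618 and 6669 CPM), which had means of 209 and 235 CPM in the A101D sets. TYR and TYRP1 had means of at most 1.62 CPM in A101D. Of the markers of other cell types, the 4 leukocyte genes summed to at most 0.573 CPM in any library. The 4 epithelial genes summed to 1.53 to 1.56 CPM in A101D replicates 1-4, 3.80 to 4.18 CPM in A101D replicates 5-8 and at most 1.08 CPM in MeWo, where KRT5 was at 0 in replicates 5-8. The 5 fibroblast markers summed to 937 to 1061 CPM in A101D replicates 1-4, 573 to 639.7 CPM in A101D replicates 5-8 and 74.1 to 84.9 CPM in MeWo. In A101D nearly all of that sum was the collagen gene COL1A2, while COL1A1 was at most 1.09 CPM and DCN at most 0.232 CPM. In MeWo most of it was LUM, with means of 72.9 and 74.9 CPM against 1.33 and 2.05 CPM in the A101D sets. The means of COL1A1 and DCN were also higher in MeWo, and those of COL1A2 and PDGFRB lower. Within A101D the means of COL1A2 and PDGFRB were lower in replicates 5-8, and those of COL1A1, DCN and LUM higher. The part of these markers in the differences between the A101D replicate sets was not tested.

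The transcription starts of the host genes are shown first, because a pyrimidine start is the sequence feature that links snoRNA hosts to the ribosomal protein genes. Start windows from RefSeq (GRCh38.p14) matched 28 of the 32 genes, with none for SNHG6, SNHG9, SNHG15 and SNHG25. Each window of 60 bases runs 5′ to 3′ from 20 bases before the listed start to 40 bases from it. Capitals mark the unbroken run of C and T that begins with a C at the first transcribed base.
SNHG12 (chr1:28581834-28581893, minus strand): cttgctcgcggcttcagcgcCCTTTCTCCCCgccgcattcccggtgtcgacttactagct
SNHG4 (chr5:139274081-139274140, plus strand): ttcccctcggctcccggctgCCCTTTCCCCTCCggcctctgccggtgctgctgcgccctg
SNHG5 (chr6:85678694-85678753, minus strand): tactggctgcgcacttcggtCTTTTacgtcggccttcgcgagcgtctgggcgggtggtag
ZFAS1 (chr20:49278622-49278681, plus strand): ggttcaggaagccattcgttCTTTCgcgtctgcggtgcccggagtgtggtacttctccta
SNHG19 (chr16:2155319-2155378, minus strand): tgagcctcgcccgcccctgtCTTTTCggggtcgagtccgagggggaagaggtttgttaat
SNHG32 (chr6:31834896-31834955, plus strand): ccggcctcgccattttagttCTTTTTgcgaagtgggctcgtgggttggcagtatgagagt
SNHG7 (chr9:136728145-136728204, minus strand): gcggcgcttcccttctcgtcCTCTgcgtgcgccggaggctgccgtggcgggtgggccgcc
SNHG8 (chr4:118278742-118278801, plus strand): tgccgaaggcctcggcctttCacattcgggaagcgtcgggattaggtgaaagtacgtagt
SNHG1 (chr11:62855846-62855905, minus strand): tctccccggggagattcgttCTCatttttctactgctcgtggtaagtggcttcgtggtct

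A start with C followed by at least 4 further pyrimidines was found on the transcribed strand in 7 of the 28 matched genes (25%): SNHG4, SNHG5, SNHG12, SNHG18, SNHG19, SNHG32 and ZFAS1. Among all 35116 promoters of the table, 1429 (4.07%) had such a start. A first base of C without regard to what follows was found in 11 of the 28 genes (39.3%) and in 14.7% of all promoters. SNHG7, SNHG8 and SNHG1 are printed above as genes with a shorter run, of 4, 1 and 3 bases. Of the 11 genes with a first C, SNHG18 (a run of 21) and SNHG26 (a run of 4) are not printed. In A101D replicates 5-8, described below, SNHG26 rose, while all printed genes but SNHG32 fell. The printed windows therefore do not represent all C starts. A listed start is 1 position out of the several that a promoter can use, and a window without the run says only that these letters are not at that position.

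The reading frames of the spliced RNAs were short. In the GENCODE v29 annotation the 32 genes had 290 spliced transcripts, and the frame from the first ATG had a median of 25.5 codons. In 240 of them (82.8%) that frame stopped more than 50 bases before the last exon junction, the arrangement that NMD recognises. The share over 25682 spliced long noncoding transcripts was 71.3%, with a median of 18 codons. Transcripts of 1 gene share most of their sequence, and GAS5 (29), SNHG29 (30) and SNHG14 (24) supplied many of the 290. All 16 spliced transcripts of SNHG12 had such a stop, as did 9 of 10 of ZFAS1, 26 of 29 of GAS5 and 21 of 23 of SNHG5. SNHG18, SNHG25 and SNHG9 had none. GENCODE v29 lists SNHG32, there named C6orf48, as protein coding, and the set keeps it by its symbol.

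RefSeq placed at least 1 snoRNA or scaRNA inside 30 of the genes, all but SNHG27 and SNHG28. Box C/D snoRNAs alone lay in 13 genes, box H/ACA snoRNAs alone in 11, both kinds in GAS5 and SNHG12, and a single scaRNA in SNHG10, SNHG20, SNHG21 and SNHG22. The kinds used below follow RefSeq. GENCODE v29 also places SNORA50C, by its name a box H/ACA snoRNA, inside SNHG25, which counts here as a box C/D host. GAS5 held 10 box C/D snoRNAs and SNHG1 held 8, while SNHG14, the long host in the Prader-Willi region, held 83.

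Levels were compared between genes per length, as CPM per kilobase of exon (RPKM). That length joins the exons of all GENCODE v29 transcripts of a gene, so the order depends on the annotation. By CPM alone, GAS5 (mean 186 CPM) stood above SNHG8 (70.5 CPM). Counts over these exons do not separate spliced from unspliced host RNA. SNHG16 was the highest of the 32 genes with a mean of 115.6 RPKM over the 16 libraries, followed by SNHG8 (76.4 RPKM), SNHG29 (71.3 RPKM) and GAS5 (51.3 RPKM). The first place of SNHG16 came from MeWo, with a mean of 198 RPKM in each set. In A101D, SNHG29 was the highest, at 53.3 and 40.6 RPKM, where SNHG16 was at 36.9 and 29.6 RPKM. SNHG31 was the lowest of the tested genes at 0.237 RPKM, with 9 to 23 counts per library. In the sum over all 32 genes, each A101D library of replicates 1-4 held 1514 to 1547 CPM and each of replicates 5-8 held 1103 to 1178 CPM. MeWo libraries held 2926 to 3114 CPM, with overlapping values in its replicate sets. The summed level of these genes in MeWo was above that in every A101D library, and within A101D it was lower in every library of replicates 5-8. SNHG16 alone was a large part of the difference between the lines. Its means were 1061 CPM in each MeWo set against 198 and 159 CPM in A101D. As the mean over both replicate sets, 7 of the 30 tested genes (23.3%) were lower in MeWo, beside 45.6% of all genes tested. In RNA from whole cultures, fewer cells of a kind and less RNA per cell cannot be told apart.

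**Figure D1:**
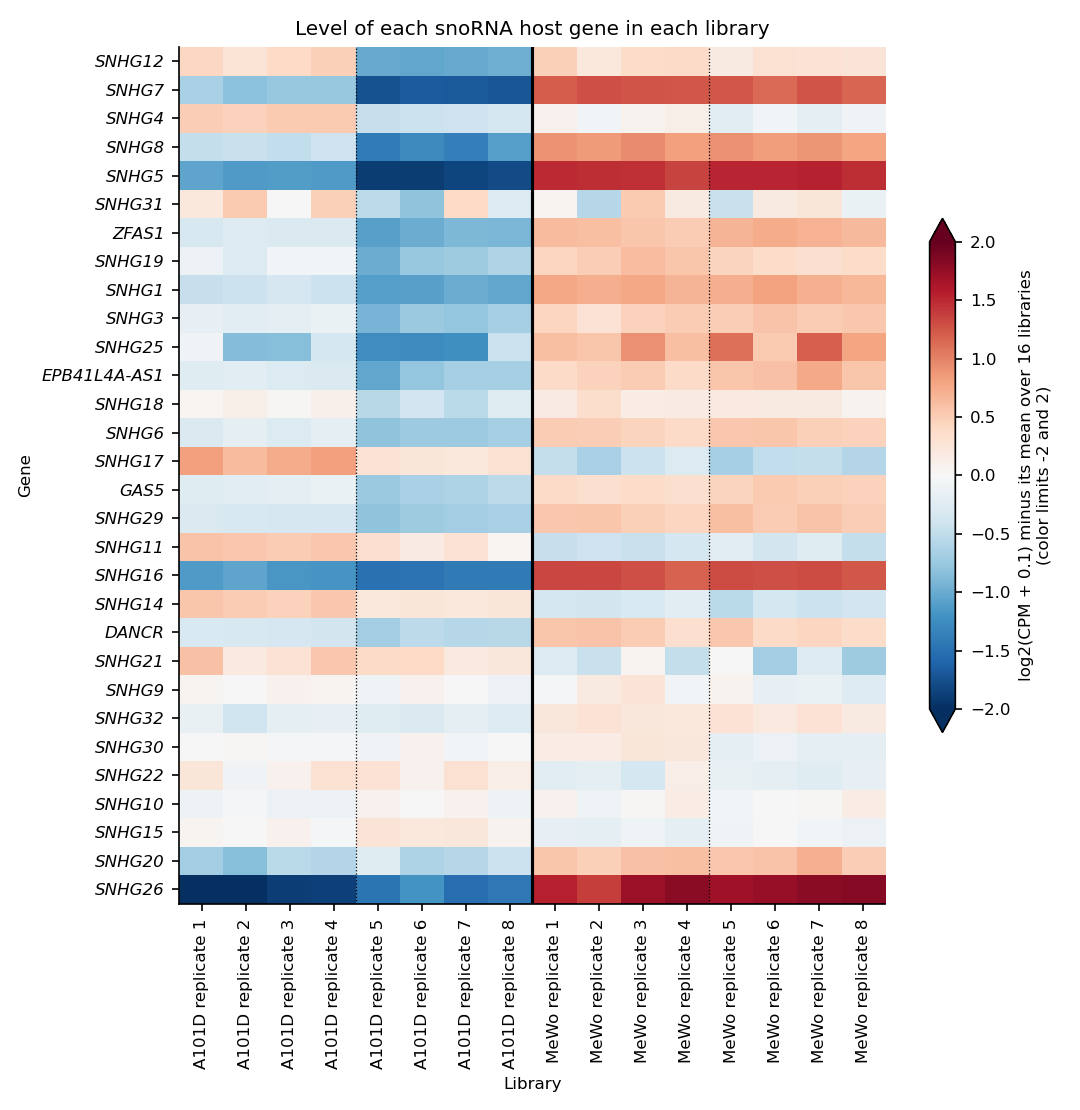
Level of the 30 tested snoRNA host genes (rows, ordered by the difference between the A101D replicate sets) in each of the 16 libraries (columns), as log2(CPM + 0.1) minus the mean of the gene over all libraries, with the color scale ending at -2 and 2. Most upper rows are bluer in A101D replicates 5-8 than in A101D replicates 1-4, while the MeWo columns differ less, and SNHG11, SNHG14, SNHG17 and SNHG21 are rows that are redder in A101D than in MeWo.

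Within A101D, 20 of the 30 tested host genes fell in replicates 5-8 relative to replicates 1-4, 3 rose, and 7 did not pass the test (limma-voom, adjusted p under 0.05). Over all genes tested, 35.8% fell and 29.6% rose in this comparison. The median log2 fold change of the host genes was -0.46, beside -0.05 over all genes. The largest falls were in SNHG12, SNHG7, SNHG4, SNHG8 and SNHG5. In 19 genes every library of replicates 5-8 lay below every library of replicates 1-4, and in SNHG26 every one lay above. Over all genes tested, the libraries separated in this way in 32.9% (below) and 27% (above).

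SNHG12, host of SNORD99 and of 3 box H/ACA snoRNAs, stood at 39, 35.2, 38.7 and 40.6 CPM in A101D replicates 1-4 in that order and at 14.5, 14.2, 14.4 and 14.8 CPM in replicates 5-8. No library of replicates 5-8 came near those of replicates 1-4. The log2 fold change was -1.40 (SE 0.06, adjusted p = 4.08e-24). Its start carries a run of 11 pyrimidines, the longest of the 28 after SNHG18 and SNHG4.

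SNHG7, host of SNORA17A and SNORA17B, stood at 24.5, 21.6, 22.6 and 22.6 CPM in replicates 1-4 and at 11.4, 12, 11.9 and 11.6 CPM in replicates 5-8, again with a wide gap. This is a log2 fold change of -0.96 (SE 0.061, adjusted p = 4.42e-18). Of its exonic bases, 1094 lie opposite exons of DIPK1B, so reads of both genes cannot be told apart unless the counting used strand, which the sources used here do not state.

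SNHG4, host of SNORA74A and SNORA74D, was at 60.3, 59.1, 61.5 and 61.5 CPM in replicates 1-4 and at 31.1, 31.6, 32.2 and 33.6 CPM in replicates 5-8. The sets were far apart and the spread within each was small (log2 fold change -0.92, SE 0.047, adjusted p = 4.42e-21). SNHG4 shares 626 exonic bases with MATR3 on the same strand, and its count is uncertain to that extent.

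SNHG8, host of SNORA24, had 42.3, 43.2, 41.9 and 44.2 CPM in replicates 1-4 and 22.3, 24.1, 22.8 and 27.2 CPM in replicates 5-8 (log2 fold change -0.83, SE 0.053, adjusted p = 6.61e-18). SNHG5, host of SNORD50A and SNORD50B, had 23.1, 21.9, 22.1 and 21.9 CPM against 12.8, 12.8, 13.4 and 13.9 CPM, a log2 fold change of -0.75 (SE 0.058, adjusted p = 3.26e-15). For both genes the highest library of replicates 5-8 lay well below the lowest of replicates 1-4.

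The 4 hosts with other names than SNHG also fell. ZFAS1, host of SNORD12, SNORD12B and SNORD12C and named for lying antisense to ZNFX1, went from 67.7, 70.4, 69.2 and 68.8 CPM in A101D replicates 1-4 to 39.7, 42.2, 45 and 44.9 CPM in replicates 5-8. Its log2 fold change was -0.69 (SE 0.044, adjusted p = 7.51e-18). GAS5, first described as a transcript that accumulates in growth-arrested cells, had 151, 152, 157 and 162 CPM against 107, 113, 116 and 124 CPM (log2 fold change -0.44, SE 0.04, adjusted p = 4.92e-13). EPB41L4A-AS1, host of SNORA13, had 14.8, 15, 14.5 and 14.5 CPM against 8.50, 10.2, 11.1 and 11.1 CPM (log2 fold change -0.53, SE 0.075, adjusted p = 4.10e-08). DANCR, host of SNORA26 and known as a suppressor of differentiation, had 71.1, 70.0, 69.1 and 68.2 CPM against 54.1, 60.7, 59.1 and 59.7 CPM, the smallest of the 20 falls (-0.25, SE 0.049, adjusted p = 1.46e-05). The replicate sets did not overlap in any of these 4 genes. Of the 3344 exonic bases of EPB41L4A-AS1, 1659 lie opposite exons of EPB41L4A, so the strand limit given for SNHG7 holds here too. Leaving snoRNA and scaRNA genes aside, 19 of the 32 hosts share exonic bases with another annotated gene on the same or the opposite strand.

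SNHG1, which holds 8 box C/D snoRNAs, had 62, 62.9, 67.5 and 63 CPM against 39.6, 40.1, 42.9 and 41.3 CPM (log2 fold change -0.64, SE 0.044, adjusted p = 1.00e-16). SNHG6, host of SNORD87, had 42.7, 45.6, 43.2 and 46.1 CPM against 29.7, 31.4, 31.5 and 33 CPM (log2 fold change -0.50). Both hosts with the most counts had smaller values. SNHG16, host of SNORD1A, SNORD1B and SNORD1C, had 198, 208, 194 and 191 CPM against 154, 156, 162 and 163 CPM (log2 fold change -0.32, SE 0.04, adjusted p = 2.27e-09), and SNHG29, host of SNORD49A, SNORD49B and SNORD65, had 204, 199.8, 199 and 199 CPM against 143, 152, 155 and 160.4 CPM (log2 fold change -0.39, SE 0.038, adjusted p = 3.47e-12). In each of these 4 genes all libraries of replicates 5-8 were below all of replicates 1-4.

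The other genes that fell were SNHG3, SNHG11, SNHG14, SNHG17, SNHG18, SNHG19 and SNHG31, with log2 fold changes from -0.75 to -0.29. SNHG31 rests on few counts: its libraries held 0.472 to 0.731 CPM against 0.232 to 0.659 CPM, which overlap. Its adjusted p was 0.0292, and the call was lost under median-of-ratios, upper-quartile and total-count scaling and without A101D replicate 2, 4, 5 or 6.

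**Figure D2:**
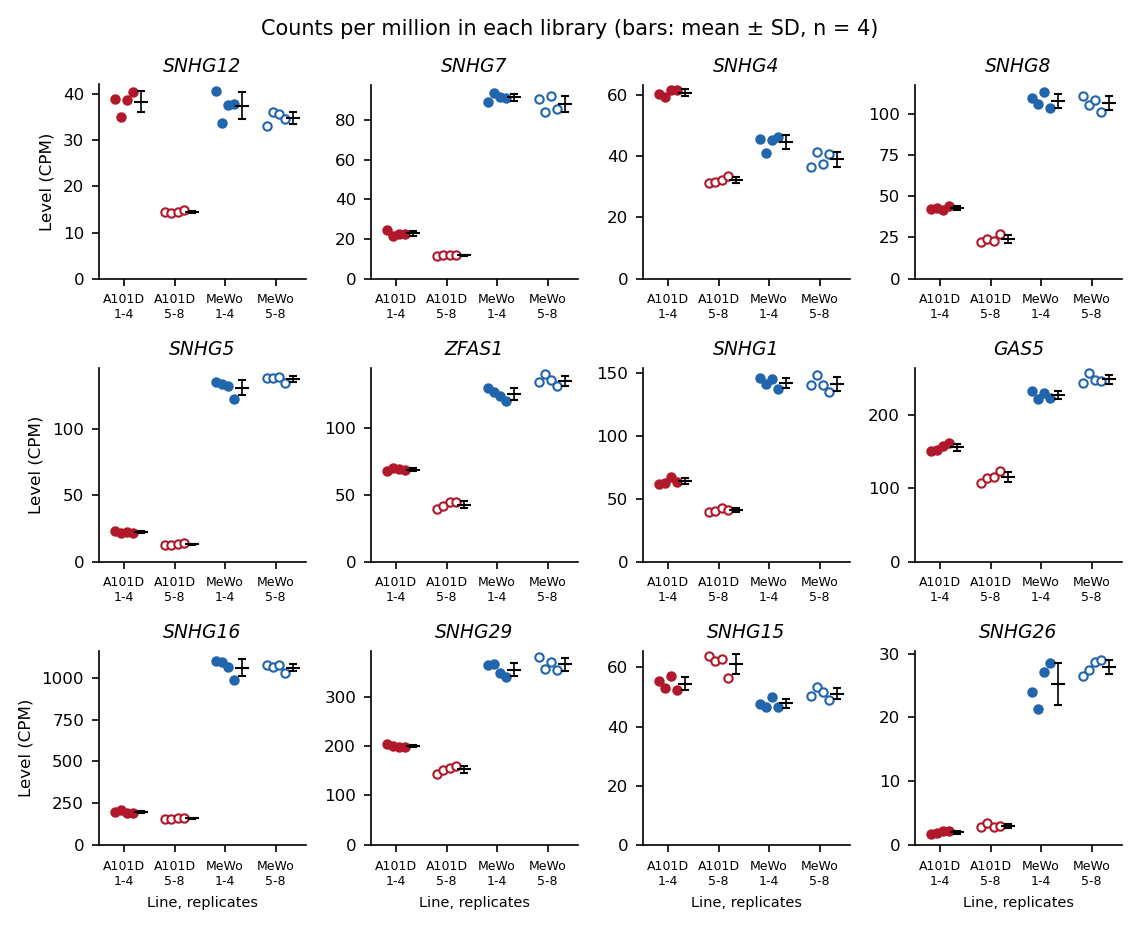
CPM of 12 host genes in every library, by line and replicate set (red A101D, blue MeWo; filled points replicates 1-4, open points replicates 5-8), with the mean and SD of each group of 4 beside the points and every axis starting at 0. SNHG12 is at 14.2 to 14.8 CPM in A101D replicates 5-8 and above 33 CPM in the other 3 groups, whereas SNHG26, and SNHG15 in all but 1 library, are higher in A101D replicates 5-8 than in replicates 1-4.

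SNHG26, SNHG20 and SNHG15 rose. SNHG26, host of SNORD93, was low in A101D, at 1.73, 1.94, 2.14 and 2.17 CPM in replicates 1-4 and 2.88, 3.51, 2.78 and 2.94 CPM in replicates 5-8. The sets did not overlap, and the log2 fold change was 0.61 (SE 0.16, adjusted p = 0.00106). SNHG15, host of SNORA9, had 55.6, 53, 57 and 52.5 CPM against 63.9, 62.2, 62.7 and 56.3 CPM. Only replicate 8 lay within the range of replicates 1-4, and the rise was small, with a log2 fold change of 0.17 (SE 0.044, adjusted p = 0.00104). SNHG20, host of SCARNA16, had 6.83 to 8.46 CPM against 8.07 to 10.4 CPM. The SNHG20 ranges overlapped (0.20, SE 0.087, adjusted p = 0.0404), and the call was lost without A101D replicate 1, 2, 5 or 8, 1 at a time.

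SNHG9, SNHG10, SNHG21, SNHG22, SNHG25, SNHG30 and SNHG32 did not pass the test in A101D. SNHG30 and SNHG32 were the flattest, with log2 fold changes of -0.0015 (SE 0.068) and -0.03 (SE 0.05). SNHG25, the small host of SNORD104, had a value of -0.54 with an SE of 0.28 and overlapping sets. Without A101D replicate 8, which at 5.93 CPM was apart from the other 3 libraries of its set, the value was -0.75 and passed.

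By kind of RNA hosted, box C/D hosts fell in 9 of 13 cases and rose in 1 (median log2 fold change -0.50). Box H/ACA hosts fell in 9 of 11 and rose in 1 (median -0.53). GAS5 and SNHG12, which host both, fell. None of the 4 scaRNA hosts fell: SNHG20 rose, and SNHG10, SNHG21 and SNHG22 had values of 0.11, -0.12 and 0.05 (median of the 4, 0.08). Among all genes tested, 35.8% fell and 29.6% rose. The grouping by kind was made after the values were seen, and the difference between the kinds was not tested. Of the 7 tested genes with a pyrimidine start, 6 fell, with SNHG32 the exception (median -0.69), against 13 of the 19 matched genes without one (median -0.34), also with no test of the difference.

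Scaling moved some of these values. With total counts as library sizes the median over all genes rose by 0.16, and with upper-quartile factors by 0.14. The share of higher genes among all calls then went from 45.2% to 59.5% and 57.5%. The number of host genes that fell was 19 with either scaling, and those that rose were 6 and 5. SNHG10 (0.27 and 0.25) and SNHG32 (0.13 and 0.11) passed as higher with both, and SNHG30 with total counts (0.16). Of the tested host genes, 12 share no exonic base with another annotated gene when snoRNA and scaRNA genes are left aside. Some of these 12, SNHG1 and SNHG8 among them, do share exonic bases with snoRNA genes. With the main scaling 8 of the 12 fell and 2 rose, with a median of -0.52. The shares over all genes tested were 35.8% and 29.6%.

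Within MeWo, 3 of the 30 host genes rose in replicates 5-8, 2 fell, and 25 did not pass the test. Over all genes tested, 4.59% rose and 8.51% fell. The median log2 fold change of the host genes was -0.01, beside -0.02 over all genes. The value largest in size was -0.37, in SNHG30.

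GAS5 rose from 233, 221, 229 and 222 CPM in MeWo replicates 1-4 to 243, 256, 247 and 245 CPM in replicates 5-8 (log2 fold change 0.13, SE 0.038, adjusted p = 0.0142). ZFAS1 had 131, 127, 124 and 120.3 CPM against 135, 140.5, 137 and 132 CPM (log2 fold change 0.11, SE 0.039, adjusted p = 0.0444). EPB41L4A-AS1 had 23, 24.4, 25.1 and 22.9 CPM against 25.8, 26.5, 29.8 and 26 CPM (log2 fold change 0.18, SE 0.057, adjusted p = 0.029), with replicate 7 apart from the other libraries. The sets did not overlap in these 3 genes (over all genes tested, 6.2% lay above without overlap and 8.11% below), and the sizes were small. The call was lost for GAS5 without MeWo replicate 2 or 6, for EPB41L4A-AS1 without MeWo replicate 1, 2, 4 or 7, and for ZFAS1 without each of MeWo replicates 1 to 7 or A101D replicates 2, 4, 6 and 7 in turn.

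SNHG30, host of SNORD7, fell from 11.3, 11.4, 12.1 and 12 CPM to 9.01, 9.44, 8.90 and 8.87 CPM. It did not pass in A101D, and its MeWo sets did not overlap (log2 fold change -0.37, SE 0.068, adjusted p = 0.000173). SNHG4 fell from 45.4, 41, 45 and 46.3 CPM to 36.4, 41.4, 37.3 and 40.7 CPM, with overlap at the edge (log2 fold change -0.19, SE 0.048, adjusted p = 0.00483). Of the 5 genes with the largest falls in A101D, SNHG4 also fell in MeWo and the other 4 did not pass. SNHG12 had 40.8, 33.8, 37.7 and 38 CPM against 33.2, 36.1, 35.8 and 34.8 CPM (log2 fold change -0.10, adjusted p = 0.204), SNHG7 -0.06, SNHG8 -0.02 and SNHG5 0.07.

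The number of MeWo calls depends on 1 library and on the scaling. It was 2 without MeWo replicate 2 and 3 without replicate 1 or 7. With total counts or upper-quartile factors it was 8, and the share of higher genes among the calls over all genes went from 35% to 66.3% and 54.8%. Upper-quartile factors over all genes with a count gave 18.9%, with 4 host genes called, all lower.

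The difference between the lines in this contrast was tested directly, as the MeWo difference minus the A101D difference. It was positive in 19 of the 30 host genes, negative in 2 and not past the threshold in 9. Over all genes tested, 27.6% were positive and 20.8% negative. The median over the host genes was 0.44, beside 0.06 over all genes. It combines the within-line values into 1 value per gene. SNHG12 had the largest difference, 1.3 (SE 0.079, adjusted p = 2.88e-18), followed by SNHG7 at 0.90, SNHG5 at 0.82, SNHG8 at 0.81 and ZFAS1 at 0.80. Among the rest, GAS5 differed by 0.57, SNHG1 by 0.62 and SNHG16 by 0.32.

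The 2 negative genes were SNHG26, which rose in A101D (-0.46, SE 0.17, adjusted p = 0.0264), and SNHG30, which fell in MeWo (-0.37, SE 0.096, adjusted p = 0.00144). Those not past the threshold were the scaRNA hosts SNHG10, SNHG20, SNHG21 and SNHG22 together with SNHG9, SNHG15, SNHG25, SNHG31 and SNHG32. Under total-count and upper-quartile scaling 17 genes were positive and 4 negative. The positive share of calls over all genes was then 45.8% and 46.2%, against 57.0% with the main scaling, and DANCR and SNHG14 were no longer called. The call was also lost for SNHG26 without A101D replicate 1 or 6, for DANCR without A101D replicate 2 or MeWo replicate 3, and for SNHG14 without A101D replicate 2 or MeWo replicate 1, 2 or 3, while SNHG25 was called without A101D replicate 8 (0.98) or MeWo replicate 6 (0.89).

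**Figure D3:**
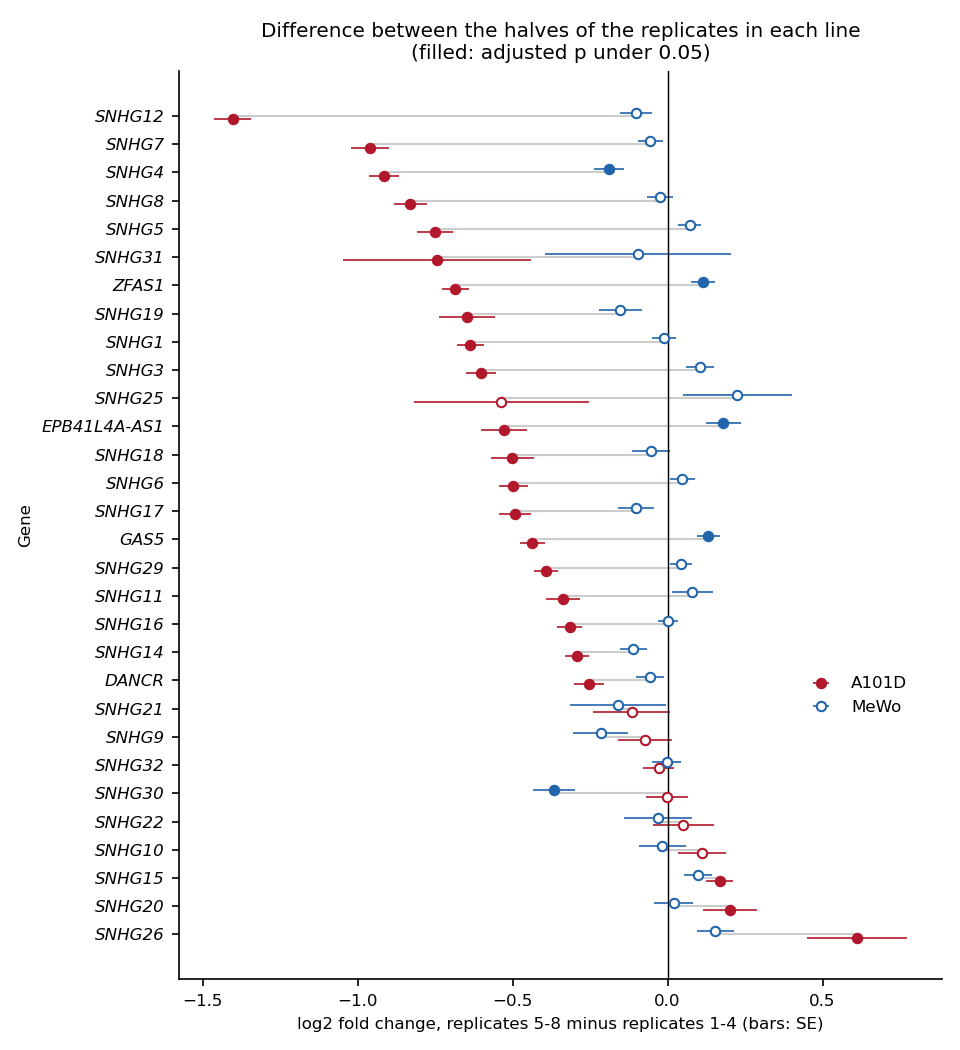
Log2 fold change of replicates 5-8 against replicates 1-4 for each tested host gene (bars show the SE) in A101D (red) and MeWo (blue), filled where the adjusted p is under 0.05. Red points lie left of 0 for most genes and reach -1.40 at SNHG12, while the blue points lie between -0.37 and 0.22.

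snoRNAs inside the hosts were looked at next, because the small RNAs and the spliced host come from 1 precursor. GENCODE v29 has 144 snoRNA genes inside these hosts, all on the host strand, 84 of them in SNHG14. It lists none inside GAS5. Only 12 of the 144 passed the low-count filter. Reads on a snoRNA gene in a total RNA library can come from the unspliced host as well as from the small RNA, and counts do not tell these apart. The sequences of 3 of the 12 are printed from GENCODE v29 (GRCh38), chosen after their values were seen: 2 because they had the largest falls in A101D and 1 because it lies in SNHG25. Capitals mark box C (TGATGA) near the 5′ end and box D (CTGA) near the 3′ end where these letters were found.
SNORD12C in ZFAS1 (chr20:49278940-49279028, plus strand): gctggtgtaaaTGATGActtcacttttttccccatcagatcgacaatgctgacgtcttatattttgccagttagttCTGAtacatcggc
SNORD99 in SNHG12 (chr1:28578749-28578822, minus strand): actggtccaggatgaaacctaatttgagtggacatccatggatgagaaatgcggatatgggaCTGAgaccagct
SNORD104 in SNHG25 (chr17:64146083-64146152, plus strand): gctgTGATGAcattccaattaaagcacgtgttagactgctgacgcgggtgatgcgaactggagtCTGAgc

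In A101D replicates 5-8, 8 of the 12 snoRNA genes fell, none rose, and 4 did not pass (median log2 fold change -0.69). Among all genes tested, 35.8% fell and 29.6% rose. SNORD12C went from a mean of 2.09 CPM to 0.623 CPM (log2 fold change -1.77, SE 0.2, adjusted p = 2.48e-10); its host ZFAS1 had -0.69. SNORD99 went from 1.26 CPM to 0.346 CPM (-1.90, SE 0.28, adjusted p = 1.36e-07) and its host SNHG12 had -1.40. The difference between a snoRNA gene and its host was not tested. SNORD104 went from 2.21 CPM to 1.29 CPM (-0.78, SE 0.21, adjusted p = 0.00145), while the exons of SNHG25 did not pass. SNORA73B, in SNHG3 and the only 1 of the 12 above 10 CPM, went from 91.3 CPM to 67.5 CPM (-0.44, SE 0.11, adjusted p = 0.00326). SNORA74A, in SNHG4, did not pass (-0.17, SE 0.18, adjusted p = 0.428) although its host fell.

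In MeWo 2 of the 12 fell and none rose, beside 8.51% and 4.59% of all genes tested. SNORA13 fell from 0.891 CPM to 0.439 CPM (-1.17, SE 0.28, adjusted p = 0.00327), the opposite direction to its host EPB41L4A-AS1. SNORA73B fell from 123 CPM to 95.3 CPM (-0.37, SE 0.11, adjusted p = 0.036), and its host SNHG3 had 0.10 with no call. Of the 12, all but SNORA73B and SNORD104 had group means under 5 CPM, which limits what could be detected.

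Genes with related roles were counted from lists chosen with earlier results of these data known. For comparison, 35.8% of all genes tested fell and 29.6% rose in A101D replicates 5-8. Protein-coding hosts carry snoRNAs in their introns, and their list holds ribosomal protein and other translation genes along with genes of other roles. These hosts fell in 41 of 45 cases in A101D replicates 5-8 and rose in 3, with a median log2 fold change of -0.56. The 3 with the largest changes were HSPA8, a heat shock chaperone, from 2674 to 2942 CPM to 682 to 931 CPM (-1.82, SE 0.078, adjusted p = 4.01e-11), RPL3 (-1.52, SE 0.055, adjusted p = 2.41e-17) and RPL13A (-1.40, SE 0.06, adjusted p = 9.89e-14), both ribosomal proteins. Of the 18 snoRNP proteins, which bind snoRNAs or assemble them into particles, 12 fell and 4 rose (median -0.33). NOP56, a core protein of box C/D particles, went from 181 ± 4.27 CPM to 93.2 ± 1.32 CPM (SD, n = 4; log2 fold change -0.95), FBL, the methyltransferase of those particles, had -0.92, and PIH1D1, an assembly factor, had -0.75. NOP56 and DKC1 are on both lists.

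Of 26 NMD and surveillance factors, 16 fell (61.5%) and 7 rose (26.9%), with a median of -0.18, beside 35.8% and 29.6% of all genes tested. DHX34, a helicase that acts with the NMD kinase complex, rose from 67 ± 0.878 CPM to 123 ± 7.59 CPM (SD, n = 4; log2 fold change 0.88). The decapping enzyme DCP2 (-0.85) and its cofactor PNRC2 (-0.84) fell. Protein-coding transcripts known to be NMD targets had the opposite majority: 8 of 10 rose, RASSF1, a tumor suppressor, fell, and 1 did not pass (median 0.66). GADD45B, a stress-induced growth regulator, rose from 20.2 to 23.8 CPM to 53.4 to 86.2 CPM (1.72, SE 0.14, adjusted p = 7.52e-08), DDIT3, which encodes the stress factor CHOP, by 1.58 (SE 0.063, adjusted p = 5.03e-25) and ATF4, the regulator of amino acid response genes, by 1.27 (SE 0.035, adjusted p = 5.02e-31). As background, ATF4, DDIT3 and the GADD45 genes are also induced by cell stress.

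In MeWo the same lists had 0 higher and 8 lower of the 45 protein-coding hosts, 0 and 5 of the 18 snoRNP proteins, 0 and 4 of the 26 NMD factors, and 3 and 1 of the 10 NMD-sensitive coding transcripts. The shares over all genes tested were 4.59% higher and 8.51% lower. ATF4 rose there too (0.71, adjusted p = 5.47e-19), and NOP56 and DKC1 had values of -0.26 and -0.26 and fell. In the test of the difference between the lines, 41 of the 45 protein-coding hosts were positive and 2 negative (median 0.49), and 8 of the 10 coding NMD targets were negative and 1 positive (median -0.45). Among all genes tested, 27.6% were positive and 20.8% negative.

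**Figure D4:**
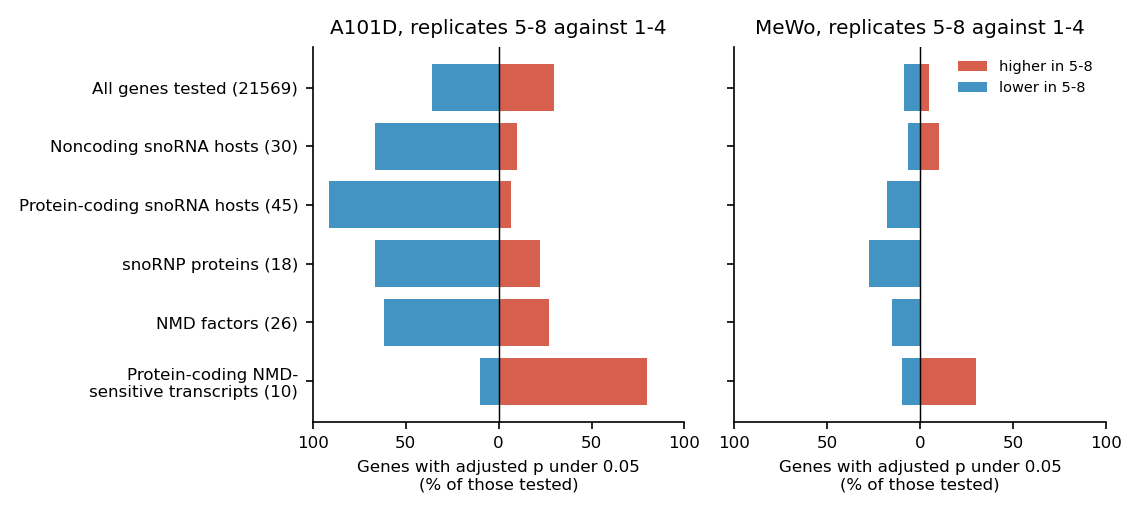
Share of the genes of each list, with the number tested in parentheses, that were higher (red, right of 0) or lower (blue, left of 0) in replicates 5-8 than in replicates 1-4 at an adjusted p under 0.05, for A101D and MeWo. In A101D the noncoding hosts (66.7% lower) lie between all genes (35.8% lower) and the protein-coding hosts (91.1% lower), and the coding NMD targets are the only list with more higher than lower genes (80% against 10%).

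Between the lines, most host genes were higher in MeWo. As the mean over both replicate sets, 19 of the 30 were higher in MeWo, 7 lower and 4 not past the threshold, where 41.1% of all genes tested were higher and 45.6% lower. The median log2 fold change was 0.86 (all genes, -0.05). In 17 genes the lowest MeWo library was above the highest A101D library, and in SNHG11, SNHG14, SNHG17 and SNHG21 the highest MeWo library was below the lowest of A101D. Over all genes tested, 24.3% lay above and 30.2% below without overlap. In replicates 1-4 alone, 18 were higher and 7 lower (median 0.57; all genes, 35.8% higher and 43.3% lower), and in replicates 5-8 alone 20 and 7 (median 1.08; all genes, 40.5% higher and 43.5% lower). With upper-quartile factors over all genes with a count, added after the data were seen, the median of all genes rose by 0.50 and the share of higher calls over all genes from 47.4% to 66.2% (from 45.3% to 66.8% in replicates 1-4 and from 48.2% to 65.2% in replicates 5-8). With those factors 25 of the host genes were higher and 4 lower: SNHG4 and SNHG15 changed from lower to higher, SNHG22 changed sign and lost its call, and SNHG9, SNHG10, SNHG30 and SNHG31 were called higher.

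SNHG26 had the largest difference as the mean over both replicate sets, 3.43 (SE 0.087, adjusted p = 1.98e-33): beside A101D levels of 1.73 to 3.51 CPM, MeWo had 24, 21.3, 27.1 and 28.6 CPM in replicates 1-4 and 26.6, 27.5, 28.7 and 29 CPM in replicates 5-8. SNHG5 had 135, 134, 133 and 123 CPM and 138, 138, 139.5 and 134 CPM in the MeWo sets (log2 fold change 2.97, SE 0.035, adjusted p = 2.74e-46). SNHG16 had 1100.1, 1093, 1063 and 987 CPM and 1076, 1064, 1077 and 1029 CPM (2.58, SE 0.026, adjusted p = 1.15e-48). SNHG7 had 89.1, 93.7, 91.7 and 90.9 CPM and 90.4, 83.8, 92.1 and 85.6 CPM (2.45, SE 0.036, adjusted p = 2.26e-42), and SNHG8 had 110.0, 106, 114 and 104 CPM and 111, 106, 109 and 101.3 CPM (1.74, SE 0.034, adjusted p = 8.60e-38). None of these genes came near overlapping between the lines.

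The other hosts followed by library had smaller differences. SNHG1 had 146, 141, 145 and 137 CPM and 140.3, 149, 140.1 and 135 CPM in the MeWo sets (log2 fold change 1.47). SNHG29 had 363, 366, 348 and 339 CPM and 380.2, 356, 370.2 and 354 CPM (1.04), SNHG6 had 74, 73.2, 71.4 and 68 CPM and 75.4, 76.4, 72.3 and 72.1 CPM (0.96), and DANCR had 128, 129.6, 125 and 110.4 CPM and 128, 114, 118 and 113 CPM (0.92). These 4 genes showed no overlap between the lines. ZFAS1 differed by 1.26, EPB41L4A-AS1 by 1.05 and GAS5 by 0.83, and all were higher in every MeWo library.

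SNHG17, host of 4 SNORA71 genes, was the furthest in the other direction. It had 97.5 to 111 CPM and 73 to 78.1 CPM in the A101D sets against 40.2 to 52.3 CPM and 39.6 to 45.3 CPM in MeWo (log2 fold change -1.01, SE 0.039, adjusted p = 8.79e-24). Its neighbour on chromosome 20, SNHG11, host of SNORA60 and SNORA71E, also had lower values in MeWo, at 16.8 to 18.2 CPM and 16.6 to 19.9 CPM against 33.1 to 34.5 CPM and 23.9 to 29.4 CPM (-0.75, SE 0.043, adjusted p = 2.00e-20). SNHG21 (-0.75), SNHG14 (-0.74), SNHG22 (-0.35), SNHG15 (-0.22) and SNHG4 (-0.08) were the other 5 lower genes. SNHG15 had 47.7, 46.7, 50.1 and 46.8 CPM and 50.5, 53.4, 51.6 and 49.1 CPM in the MeWo sets. The SNHG4 call was lost without MeWo replicate 2, 5 or 7.

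For SNHG12, SNHG18, SNHG4 and SNHG30 the difference between the lines had another direction or another side of the threshold in each replicate set. SNHG12 had a log2 fold change of -0.03 (SE 0.051, adjusted p = 0.585) in replicates 1-4 and of 1.27 (SE 0.06, adjusted p = 2.98e-23) in replicates 5-8. SNHG18, host of SNORD123, had 0.13 (SE 0.063, adjusted p = 0.0519) in replicates 1-4, which passed under each other scaling, and 0.58 (SE 0.066, adjusted p = 1.16e-10) in replicates 5-8. SNHG4 was lower in MeWo in replicates 1-4, -0.45 (SE 0.046, adjusted p = 8.29e-12), and higher in replicates 5-8, 0.28 (SE 0.049, adjusted p = 1.83e-06). SNHG30 was higher in MeWo in replicates 1-4, 0.20 (SE 0.068, adjusted p = 0.0066), and lower in replicates 5-8, -0.16 (SE 0.069, adjusted p = 0.0256), and the second call was lost without A101D replicate 6 and without MeWo replicate 7 or 8. With upper-quartile factors over all genes with a count, the value in replicates 1-4 became 0.47 for SNHG12 and 0.053 for SNHG4, and that in replicates 5-8 became 0.33 for SNHG30. The test of the change between the replicate sets passed for all 4.

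**Figure D5:**
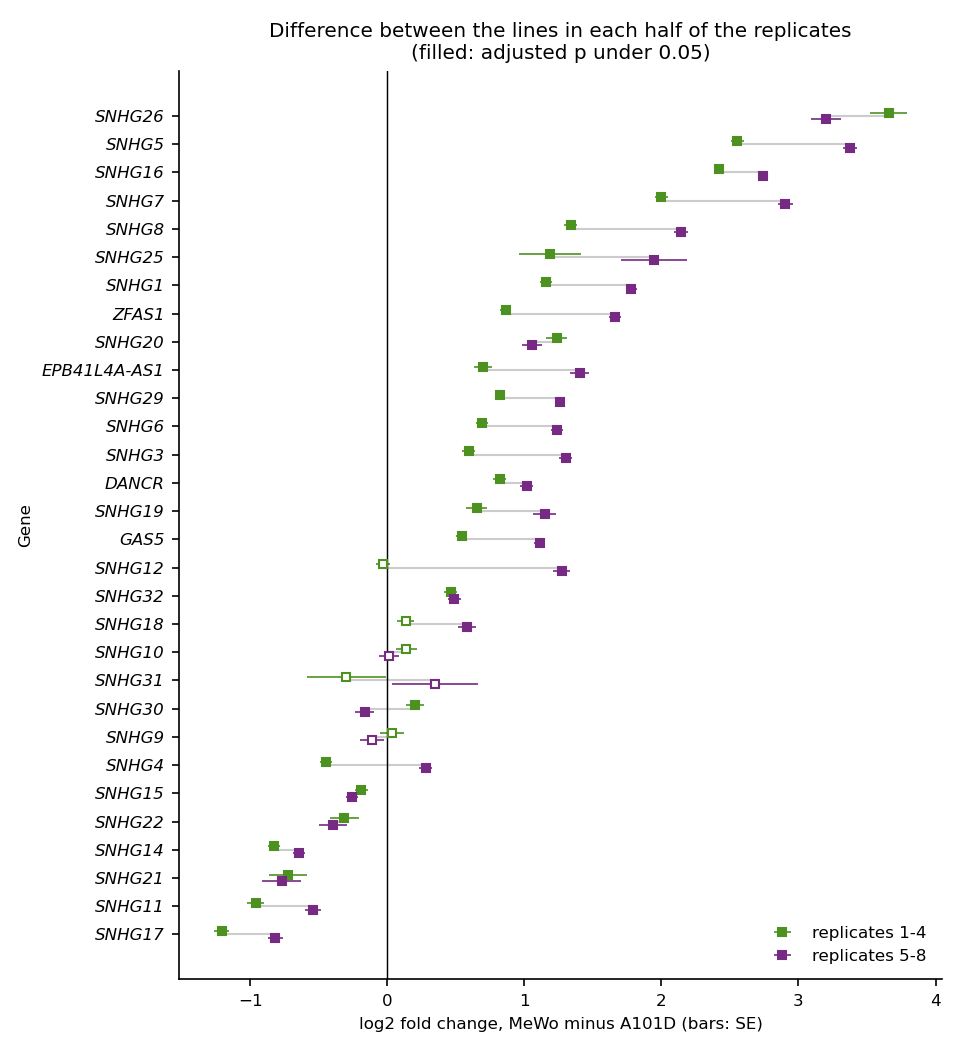
Log2 fold change of MeWo against A101D for each tested host gene (bars show the SE) in replicates 1-4 (green) and replicates 5-8 (purple), filled where the adjusted p is under 0.05. From SNHG26 at the top to SNHG17 at the bottom the values run from 3.66 to -1.21, and SNHG12 and SNHG4 are the genes whose green points lie at or left of 0 and purple points right of it with a call.

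By kind of RNA hosted, 11 of the 13 box C/D hosts were higher in MeWo and 1 lower as the mean over both replicate sets (median log2 fold change 1.04), and the box H/ACA hosts were split, with 5 of 11 higher and 4 lower (median 0.03). Among all genes tested, 41.1% were higher and 45.6% lower. As in A101D, the grouping was made after the values were seen, and the difference between the kinds was not tested. Of the scaRNA hosts SNHG20 was higher and SNHG21 and SNHG22 were lower. Protein-coding hosts were higher in MeWo in 37 of 45 cases and lower in 5 (median 0.58), led by the ribosomal protein gene RPS3 (2.58, SE 0.032, adjusted p = 1.39e-32) and by TPT1, which encodes a tumor protein controlled at translation (1.34). Of the 12 snoRNA genes tested, 9 were higher in MeWo and 1 lower.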

How the data were processed

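For each line the authors deposited a table of reads counted over the exons of genes, per the file headers. In these deposited tables a cell is a text holding an Ensembl identifier and a count, which were split apart first. The submitters' processing notes list Trimmomatic 0.39-1, STAR 2.7.1a, featureCounts 2.0.0 and GRCh38; the sources used here do not give the annotation release, the strand setting or the treatment of multiply mapped reads. All 16 columns were matched to samples by line and replicate number. Symbols were found for 60357 identifiers, and positions and lengths came from GENCODE v29 (58503 identifiers).

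Tested genes reached 0.298 CPM (10 counts at the median depth) in 4 or more libraries and a total of 15 counts or more. Library sizes were scaled by TMM (trims of 30% and 5%), and CPM are on those sizes. The 4 groups were fitted together with limma 3.58.1 (R 4.3.3; voom, robust empirical Bayes), with Benjamini-Hochberg adjustment over all 21569 genes and a threshold of 0.05. Figures used matplotlib in Python. No negative binomial model was fitted to the data. That choice was made because the cells as deposited are texts, although the counts split from them are whole numbers. In simulated counts for the comparison of the A101D replicate sets (21569 genes), 88% of 92 genes changed 1.3-fold and 100% of 108 changed 2-fold were recovered, with 10 false calls. Only 200 genes were changed there, none with few counts. All genes had the same spread, and every group had the mean levels of MeWo replicates 1-4. In the data 14095 genes were called in this comparison. The simulation therefore does not cover the effect of scaling when many genes change, nor genes with few counts.

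The members, the lists and the replicate sets were chosen with earlier results of these data known. Values in each library are given for 12 genes fixed by name (GAS5, ZFAS1, DANCR, EPB41L4A-AS1, SNHG1, SNHG5, SNHG6, SNHG8, SNHG12, SNHG15, SNHG16, SNHG29) and the 5 members of largest absolute change past the threshold per comparison; of each other list, the 3 genes of largest absolute change past the threshold are eligible. Libraries of 1 group differed by more than sampling noise (chi-square per degree of freedom at least 1.92), so none was treated as a duplicate. Same-numbered libraries of the 2 lines did not deviate together, so the numbers were not used as pairs. Alternatives were other scalings, filters, tests and thresholds, the replicate block, and leaving out each library.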

Additional observations from a re-analysis of the deposited data

Results flagged for a closer look

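In 6 of 120 checks of a gene in a group of 4 libraries, 1 library lay apart from the other 3 by Dixon's criterion. Chance flags about 1 in 20 groups, which is also 6. SNHG25 was at 5.93 CPM in A101D replicate 8 (the others 3.27 to 3.35) and at 15.1 CPM in MeWo replicate 3 (the others 11.8 to 12.2). SNHG18 was at 20.5 CPM in MeWo replicate 2 (the others 18 to 18.2) and at 16.9 CPM in MeWo replicate 8 (the others 18.3 to 18.4). EPB41L4A-AS1 was at 29.8 CPM in MeWo replicate 7 (the others 25.8 to 26.5), and SNHG32 at 32.5 CPM in A101D replicate 2 (the others 37.8 to 38.8).

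The change from replicates 1-4 to 5-8 differed between MeWo and A101D in 21 genes by the test of the difference itself (limma-voom, adjusted p under 0.05). As log2 values, MeWo minus A101D, it was 1.3 for SNHG12, 0.90 for SNHG7, 0.82 for SNHG5, 0.81 for SNHG8, 0.80 for ZFAS1, 0.73 for SNHG4, 0.71 for SNHG3 and 0.71 for EPB41L4A-AS1. Values between 0.40 and 0.70 were found for SNHG1 (0.62), GAS5 (0.57), SNHG6 (0.55), SNHG19 (0.50), SNHG18 (0.45), SNHG29 (0.44) and SNHG11 (0.42). Smaller positive values were 0.39 for SNHG17, 0.32 for SNHG16, 0.20 for DANCR and 0.18 for SNHG14. SNHG26 (-0.46) and SNHG30 (-0.37) were negative.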

How the results depend on the processing

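The number of host genes called changed by more than 1.5 times only for MeWo replicates 5-8 against 1-4, where 5 were called: 8 with upper-quartile factors, 8 with total counts only, 3 with limma-trend, 2 at an adjusted p under 0.01, and 2 to 6 when leaving out 1 library (2 without MeWo replicate 2, 3 without replicate 1 or 7). Leaving out 1 library gave 21 to 23 calls for the A101D replicate sets, 19 to 22 for the difference between the lines, and 25 to 26, 25 to 27 and 26 to 27 for the lines as the mean over both sets, in replicates 1-4 and in replicates 5-8.

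Among the results run, values with a call on at least 1 side changed sign only under other scalings, which by construction move every gene of a comparison by about the same amount; uncalled values near 0 also changed sign elsewhere. Under upper-quartile factors over all genes with a count (shift 0.50 between the lines, chosen after seeing the data), the log2 fold changes between the lines became 0.41 for SNHG4, 0.27 for SNHG15, 0.46 for SNHG9 and 0.14 for SNHG22 as the mean over both sets; 0.47 for SNHG12, 0.053 for SNHG4, 0.31 for SNHG15 and 0.19 for SNHG22 in replicates 1-4; and 0.23 for SNHG15, 0.38 for SNHG9, 0.33 for SNHG30 and 0.096 for SNHG22 in replicates 5-8. In A101D (median of all genes moved by 0.14 and 0.16) SNHG32 became 0.11 with upper-quartile factors and 0.13 with total counts, and SNHG30 0.16 with total counts.

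With the replicate number as a block (replicate block), 26, 25 and 27 genes were called between the lines and 21 in the difference between the lines, as without it, and no call changed; the within-line comparisons could not be fitted with the block. Same-numbered libraries had correlations of deviations from -0.02 to 0.08, none of 8 over 0.1, and 4 of 8 libraries correlated best with their own number. The edgeR test was not run. Counting snoRNA genes on either strand gave the same 144. Low counts limit SNHG31 and most snoRNA genes.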

Other observations

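Most of the 144 snoRNA genes inside the hosts had no count in any library, and the share differed with their position in GENCODE v29. Of the 50 that share bases with an exon of the host, 48 had no count, and the other 2 were SNORD7 in SNHG30 and SNORD48 in SNHG32. Of the 94 that share none, 52 had no count and 42 had at least 1. Outside SNHG14, whose repeated snoRNA genes make up most of the list, 35 of 37 genes with exonic bases and 7 of 23 without had no count. SNHG1, SNHG7, SNHG8 and SNHG29 are hosts whose listed snoRNA genes were at 0 throughout although the hosts themselves had counts in every library. How reads that overlap more than 1 gene were counted is not stated in the sources used here, and its part in these zeros was not tested.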
